A study of Homo sapiens with 19 samples.

Results

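Interferon-stimulated genes were followed as a set of 34 genes chosen by symbol, of 33382 genes measured by RNA-seq in all 19 samples of H1 human embryonic stem cells (hESCs), and each of the 34 symbols was found in every sample. The question was whether loss of polycomb repressive complex 2 (PRC2) raised an interferon-like response. PRC2 places H3K27me3, a histone mark of silenced genes, through EED, SUZ12 and its catalytic subunits EZH1 and EZH2. Interferons are secreted when sensors such as RIG-I (DDX58) and MDA5 (IFIH1) meet viral RNA, and they act through receptors and JAK kinases on a complex that holds STAT2 and IRF9, which binds the interferon-stimulated response element (ISRE) in promoters and switches on effectors such as the IFIT, OAS, MX and IFITM genes. Pluripotent stem cells are known for a weak interferon response and for intrinsic expression of a few of these effectors, IFITM genes among them.

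The 6 lines held 2 samples each. The controls were WT H1, and the catalytic subunits were deleted singly in EZH2-/- H1 and EZH1-/- H1 and together in EZH2-/-/EZH1-/- H1. SUZ12-/- H1 and EED-/- H1 lacked a core subunit. The double knockout and the 2 core knockouts are called PRC2-null here, since the study describes them as lacking H3K27me3, as differentiating spontaneously and as not maintainable in culture. The remaining 3 lines are called PRC2-retaining. All knockouts were made by CRISPR/Cas9 in H1, an established line, as drug-selected clones from which a functional domain was deleted, and the samples of a knockout line carried different clone or passage names. H1-EED-/-/EED-OE cells lacked endogenous EED and carried EED under doxycycline (DOX) control, with 1 sample kept in DOX and, from the same inducible line, 1 sample each at 8, 12, 16, 20, 24 and 28 days of withdrawal. Values are TPM, a level scaled for transcript length and library size, so levels may be compared between genes. TPM keeps no read depth, so no counting error can be given, and nothing states that the WT H1 samples came from separate cultures. P-values therefore measure the spread between these samples, which may be partly technical.

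The labels could be checked in part. EED stood at 109 TPM in the H1-EED-/-/EED-OE sample with DOX and at 12.6 to 31.6 TPM in the 6 without. In the knockout lines, only a domain was deleted and TPM of the whole gene does not report it: EED read 14.2 and 22.4 TPM in EED-/- H1 against 17.3 and 22.0 in WT H1, SUZ12 read 22.9 and 20.8 in SUZ12-/- H1 against 25.2 and 27.9, EZH1 read 12.5 and 17.1 in EZH1-/- H1 against 13.7 and 14.3, and EZH2 read 46.9 and 22.0 in EZH2-/- H1 against 54.5 and 58.9. In the double knockout EZH1 read 9.37 and 6.78 and EZH2 31.3 and 20.0, and EZH1 was lower in EZH2-/- H1, at 9.72 and 7.92, than in EZH1-/- H1, so these levels do not check the labels. POU5F1, which defines hESCs, lay between 2428 and 3456 TPM in the 6 PRC2-retaining samples and between 3.62 and 150 TPM in the 6 PRC2-null samples, so the defining marker of the labelled cell type was far lower in every PRC2-null sample. Replicate 2 of EZH2-/-/EZH1-/- H1 and replicate 2 of EZH2-/- H1 stood apart from their partners, with median differences of -0.65 and -0.36 (log2(TPM + 1) scale) over the 25% of genes with the longest transcripts, and results are given without them where they change. The samples of SUZ12-/- H1 were the closest pair over all tested genes, at a median absolute difference of 0.13, against 0.16 in WT H1, 0.30 in EED-/- H1 and 0.51 in EZH2-/-/EZH1-/- H1. Over the members alone it was 0.18 in SUZ12-/- H1, 0.10 in EZH1-/- H1, 0.16 in WT H1 and 0.42 in EED-/- H1.

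The sequence before the start of 6 members is shown because their expression patterns carry the results below: ISG15, IFIT1, IFIT3 and IFI6 hold the ISRE letters (GAAA, any 2 bases, GAAA) on either strand, and IFI16 and STAT2 do not in the windows shown. Sequences are from RefSeq on GRCh38.p14, 250 bases upstream of the start site, 5′ to 3′ on the gene's strand, with matches to the ISRE or to the interferon-gamma element TTCNNNGAA in capitals. For IFIT3 and IFI16, each with more than 1 start site, the first and the second site along the chromosome are shown, respectively.
ISG15 (chr1:1013247-1013496, plus strand): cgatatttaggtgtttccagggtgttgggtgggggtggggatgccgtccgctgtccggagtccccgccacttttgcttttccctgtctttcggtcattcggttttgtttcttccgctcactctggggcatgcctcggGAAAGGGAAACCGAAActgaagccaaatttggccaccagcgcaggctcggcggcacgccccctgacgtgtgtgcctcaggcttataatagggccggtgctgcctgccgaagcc
IFIT1 (chr10:89392373-89392622, plus strand): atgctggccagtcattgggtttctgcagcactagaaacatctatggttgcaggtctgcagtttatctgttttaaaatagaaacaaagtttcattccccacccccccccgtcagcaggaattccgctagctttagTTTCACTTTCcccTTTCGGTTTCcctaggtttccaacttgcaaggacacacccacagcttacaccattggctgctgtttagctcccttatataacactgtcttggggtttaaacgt
IFIT3 (chr10:89327747-89327996, plus strand): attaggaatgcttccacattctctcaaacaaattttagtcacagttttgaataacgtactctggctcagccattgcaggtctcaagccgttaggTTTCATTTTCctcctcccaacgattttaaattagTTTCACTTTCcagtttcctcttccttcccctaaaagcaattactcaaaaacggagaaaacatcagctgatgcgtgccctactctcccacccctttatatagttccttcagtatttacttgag
IFI6 (chr1:27672193-27672442, minus strand): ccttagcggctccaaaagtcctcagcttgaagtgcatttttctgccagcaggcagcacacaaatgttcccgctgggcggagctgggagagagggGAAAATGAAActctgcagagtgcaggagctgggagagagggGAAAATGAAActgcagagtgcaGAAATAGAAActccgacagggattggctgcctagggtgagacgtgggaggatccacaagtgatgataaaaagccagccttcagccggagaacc
IFI16 (chr1:159009657-159009906, plus strand): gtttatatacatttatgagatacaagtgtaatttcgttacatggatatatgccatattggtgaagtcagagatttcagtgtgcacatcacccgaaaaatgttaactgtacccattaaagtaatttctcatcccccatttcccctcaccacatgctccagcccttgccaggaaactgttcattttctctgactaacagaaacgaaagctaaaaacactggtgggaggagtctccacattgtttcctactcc
STAT2 (chr12:56360108-56360357, minus strand): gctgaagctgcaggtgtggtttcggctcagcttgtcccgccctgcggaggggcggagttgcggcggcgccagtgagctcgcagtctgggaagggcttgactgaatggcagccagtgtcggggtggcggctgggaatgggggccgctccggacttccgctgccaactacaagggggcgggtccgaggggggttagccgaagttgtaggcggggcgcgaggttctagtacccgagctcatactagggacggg
RefSeq gave windows for 25 of the 34 members (DDX58 under its present name RIGI), 33 windows in all. The ISRE letters were found in 20 of the 33 windows (60.6%), belonging to 17 members, against 1061 of 35116 windows of all genes (3.02%). In ISG15 a pair of ISRE matches overlapped. TTCNNNGAA, which reads the same on both strands, was found in 9 of the 33 windows (27.3%) and in 6.57% of all windows. A match is a run of letters and no measured binding site. DHX58, IRF7, USP18, IFIT2, OAS2, OASL, MX2, IFITM2 and TRIM22 had no entry in the table used here.

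Most interferon-stimulated genes were not called higher when PRC2 was lost. Averaged over the 3 PRC2-null lines against WT H1, 3 of the 34 members were called higher (IFI16, ISG15 and STAT2) and 1 lower (DHX58) by limma on the log2(TPM + 1) scale. A call needed an adjusted p (Benjamini-Hochberg, over all genes) no higher than 0.01 and a difference of 3-fold or more. Of all 19100 genes tested, 13.6% were called higher and 5.36% lower in the same comparison, where the members' shares were 10.0% and 3.33% of the 30 tested. Against the average of the 3 PRC2-retaining lines, 2 members were called higher (IFI16 and STAT2) and 1 lower (DHX58), where the background was 13.5% and 5.09%. In 4 members no sample of the 12 reached 1 TPM and they were not tested, namely OAS2 (at most 0.13 TPM), OASL (0.50), RSAD2 (0.53) and IFI44L (0.83), and 5 of the 30 tested (IFIT2, OAS1, IFI44, XAF1 and CXCL10) reached 1 TPM only in PRC2-null samples. The 30 tested members had a median difference of 0.36, against 0.28 over all tested genes. Without any filter, the median difference of all 34 members was 0.33, against 0.12 over 27963 genes. Rescaling the samples by median ratios moved the median of all tested genes in this contrast by -0.20, from 0.28 to 0.08, and left the same members called.

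The values of the 6 PRC2-null samples all lay above those of the 6 PRC2-retaining samples for 7 of the 30 tested members (IFI16, STAT2, IRF9, IFIT3, OAS1, IFI44 and CXCL10), as they did for 24.2% of all tested genes. They all lay below for DHX58 and IFITM1, as for 13.3% of all tested genes. The heat map of all members shows the members' levels side by side, with higher IFIT1, IFI6 and IFITM3 in SUZ12-/- H1 than in the other PRC2-null lines.

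**Figure D1:**
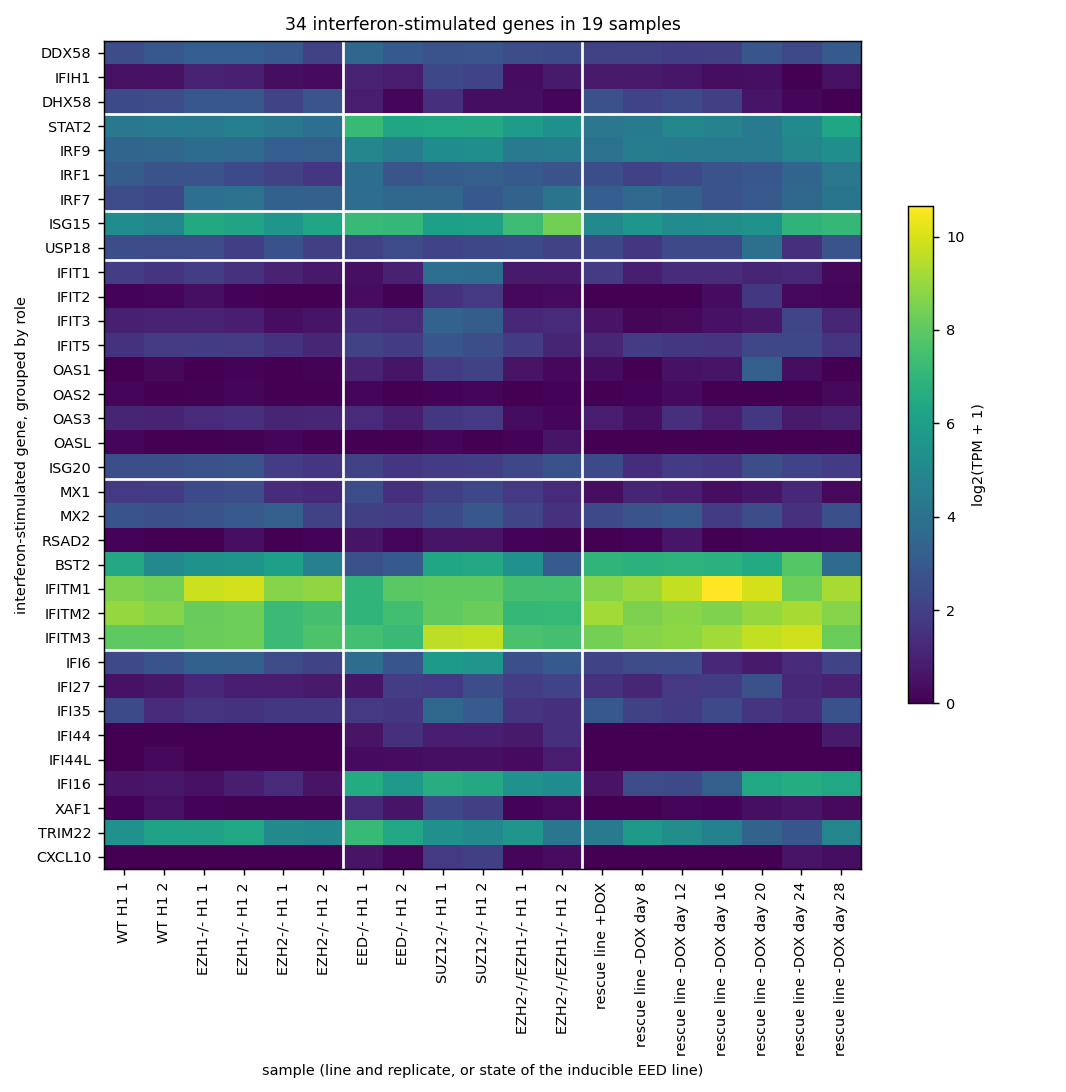
Levels of the 34 interferon-stimulated genes as log2(TPM + 1) (color) in each of 19 samples (columns: replicates 1 and 2 of the 6 lines, then the inducible H1-EED-/-/EED-OE line, here "rescue line", with DOX and at 8 to 28 days without it). White lines part the roles of the genes, and the PRC2-retaining lines, the PRC2-null lines and the time course. IFI16 is low in the 6 PRC2-retaining columns and in the sample with DOX and high in the 6 PRC2-null columns and from day 20.

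By line, the picture was uneven. All 3 comparisons share the WT H1 samples. In EED-/- H1, 3 of 34 members were called higher (IFI16, STAT2 and ISG15), at a background of 16.2%, and 3 lower (DHX58, BST2 and IFITM2), at a background of 6.09%. In EZH2-/-/EZH1-/- H1, 2 were called higher (IFI16 and ISG15), at a background of 11.6%, and 2 lower (DHX58 and IFITM2), at 5.66%. In SUZ12-/- H1, 11 of 34 (36.7% of the 30 tested) were called higher, at a background of 14.5%, and 0 lower by limma, at 5.21% (3 members were lower at an unadjusted p under 0.05, as were 20.2% of all genes). The 11 were IFI16, STAT2, IRF9, IFIH1, IFIT1, IFIT3, OAS1, IFITM3, IFI6, XAF1 and CXCL10. OAS1, XAF1 and CXCL10 passed the filter only through PRC2-null samples, and 8 calls among 25 members were left without such members. IFI16 and IFIH1 reached 1 TPM in only 1 PRC2-retaining sample, and 6 calls among 22 members were left when 2 were required. The share of all genes was not computed under these restrictions, so the counts of 8 and 6 have no background. The medians of the 30 tested members were 0.38 in EED-/- H1, -0.10 in EZH2-/-/EZH1-/- H1 and 1.00 in SUZ12-/- H1, where those of all tested genes were 0.36, 0.19 and 0.22, and all 34 members without a filter gave 0.32, -0.04 and 0.84. Under median-ratio scaling, the share of higher among all called genes went from 72.7% to 58.0% in EED-/- H1 (2312 higher and 1672 lower), and in SUZ12-/- H1 the member calls lost IRF9 and IFITM3 and gained DHX58 as lower.

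**Figure D2:**
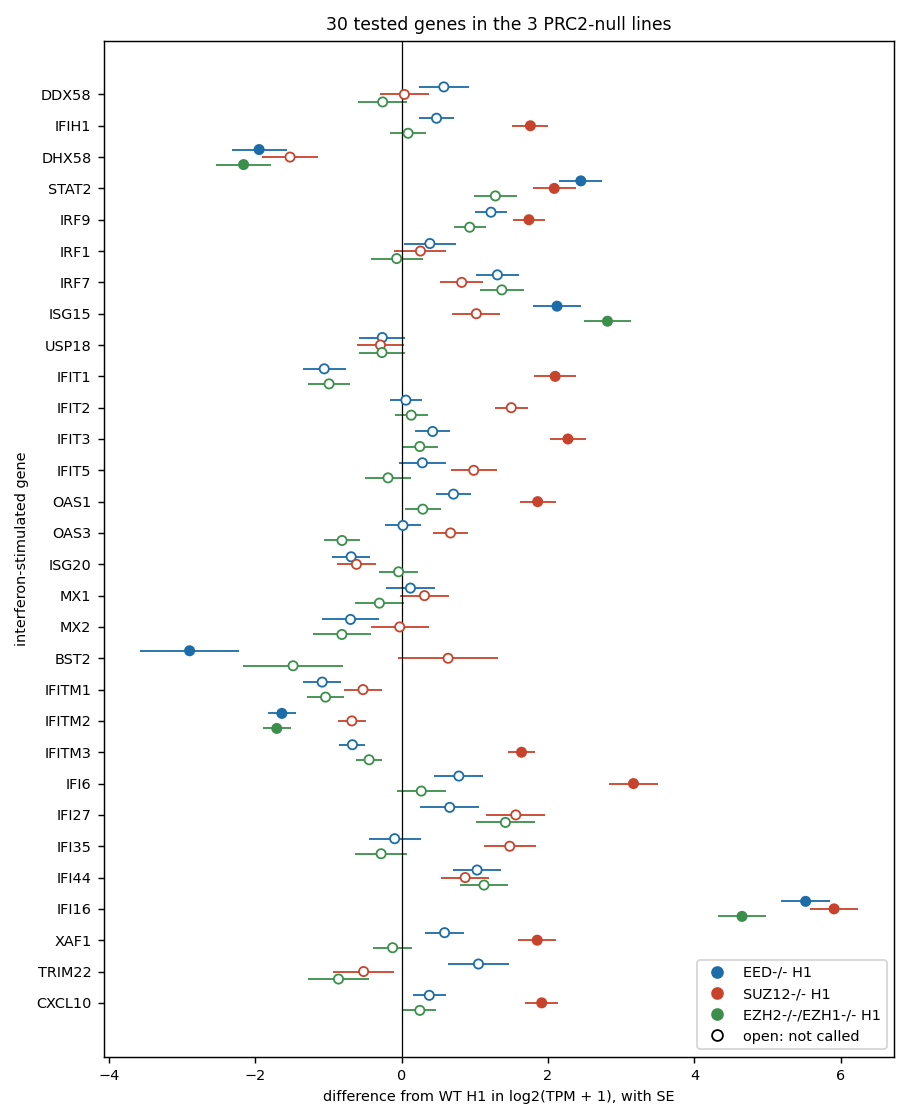
Difference from WT H1 in log2(TPM + 1) (x axis) for the 30 tested members (y axis, ordered by role) in EED-/- H1 (blue), SUZ12-/- H1 (red) and EZH2-/-/EZH1-/- H1 (green), with bars of 1 standard error from limma, and filled points for genes called. The 11 filled red points stand beside 6 filled blue and 4 filled green ones, and IFI16 lies farthest to the right in all 3 lines.

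IFI16, a nuclear sensor of DNA, carried the largest difference of any member. It read 0.47 and 0.60 TPM in WT H1, 0.41 and 0.85 in EZH1-/- H1, and 1.38 and 0.46 in EZH2-/- H1. It read 91.5 and 52.5 in EED-/- H1, 98.9 and 83.9 in SUZ12-/- H1, and 40.5 and 34.8 in EZH2-/-/EZH1-/- H1. The groups did not overlap, and the lowest PRC2-null sample stood far above the highest PRC2-retaining one. The difference of the PRC2-null average from WT H1 was 5.36 ± 0.27 (SE, limma, adjusted p = 1.51e-07) on the log2(TPM + 1) scale, and IFI16 was called in each PRC2-null line. The order of the lines, SUZ12-/- H1 first, EED-/- H1 next and EZH2-/-/EZH1-/- H1 last, was not resolved, since no pair of PRC2-null lines differed past the thresholds for this gene (differences of 0.39 ± 0.33 between SUZ12-/- and EED-/- H1, adjusted p = 0.462, and of 1.26 ± 0.33 between SUZ12-/- and EZH2-/-/EZH1-/- H1, adjusted p = 0.0292, by limma). IFI16 lies on chromosome 1 at 158999968 to 159055155, plus strand.

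Among the transcription factors of the pathway, STAT2 and IRF9, which act together on the ISRE, were higher in the PRC2-null samples. STAT2 (chromosome 12, 56341597 to 56360203, minus strand) read 18.3 and 19.3 TPM in WT H1, 19.2 and 23.1 in EZH1-/- H1, and 18.1 and 13.8 in EZH2-/- H1. It read 147 and 77.6 in EED-/- H1, 80.8 and 85.2 in SUZ12-/- H1, and 55.8 and 39.7 in EZH2-/-/EZH1-/- H1. The groups did not overlap, and the average difference was 1.94 ± 0.24 (limma, adjusted p = 6.18e-05). In EZH2-/-/EZH1-/- H1 the difference of 1.28 ± 0.30 stayed under the fold threshold (limma, adjusted p = 0.00519).

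IRF9 read 10.2 and 10.4 TPM in WT H1, 29.3 and 21.9 in EED-/- H1, 35.1 and 38.5 in SUZ12-/- H1, and 19.8 and 21.3 in EZH2-/-/EZH1-/- H1, with the other 4 samples between 8.14 and 12.5. Again the groups did not overlap, and in the average the adjusted p of 0.00012 passed while the difference of 1.30 ± 0.18 did not reach the fold. It was called in SUZ12-/- H1 alone, at 1.74 ± 0.22 (limma, adjusted p = 8.61e-05), and differences between the PRC2-null lines did not pass the thresholds for IRF9.

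IRF7, the factor that amplifies interferon production, read 4.63 and 3.90 TPM in WT H1 and 6.59 to 16.3 in the PRC2-null samples. It overlapped with the PRC2-retaining samples, which had a median of 8.77 TPM and reached 13.8 and 14.5 in EZH1-/- H1. Its average difference from WT H1 of 1.17 ± 0.24 (limma, adjusted p = 0.00202) was under the fold. IRF1, a factor induced by interferon-gamma, overlapped as well, at 5.60 to 13.4 TPM against 2.2 to 7.78, with a difference from WT H1 of 0.19 ± 0.29 (limma, adjusted p = 0.598).

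ISG15, a ubiquitin-like protein that is conjugated to targets in infected cells, was higher in the PRC2-null average and also varied among the PRC2-retaining lines. It read 35.1 and 28.3 TPM in WT H1, 86.6 and 74.2 in EZH1-/- H1, and 45.2 and 75.4 in EZH2-/- H1. It read 148 and 134 in EED-/- H1, 63.7 and 66.3 in SUZ12-/- H1, and 157 and 330.2 in EZH2-/-/EZH1-/- H1. SUZ12-/- H1 thus lay within the range of the single knockouts, and the groups overlapped. The average difference from WT H1 was 1.99 ± 0.27 (limma, adjusted p = 0.000108), a call that was lost when EZH2-/-/EZH1-/- H1 was left out of the average and that was not made against the 3 PRC2-retaining lines together. USP18, which removes ISG15 from targets, lay between 3.13 and 4.47 TPM in the PRC2-null samples and between 2.88 and 5.48 in the others, with the caveat that copies of USP18 elsewhere in the genome can share its reads.

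**Figure D3:**
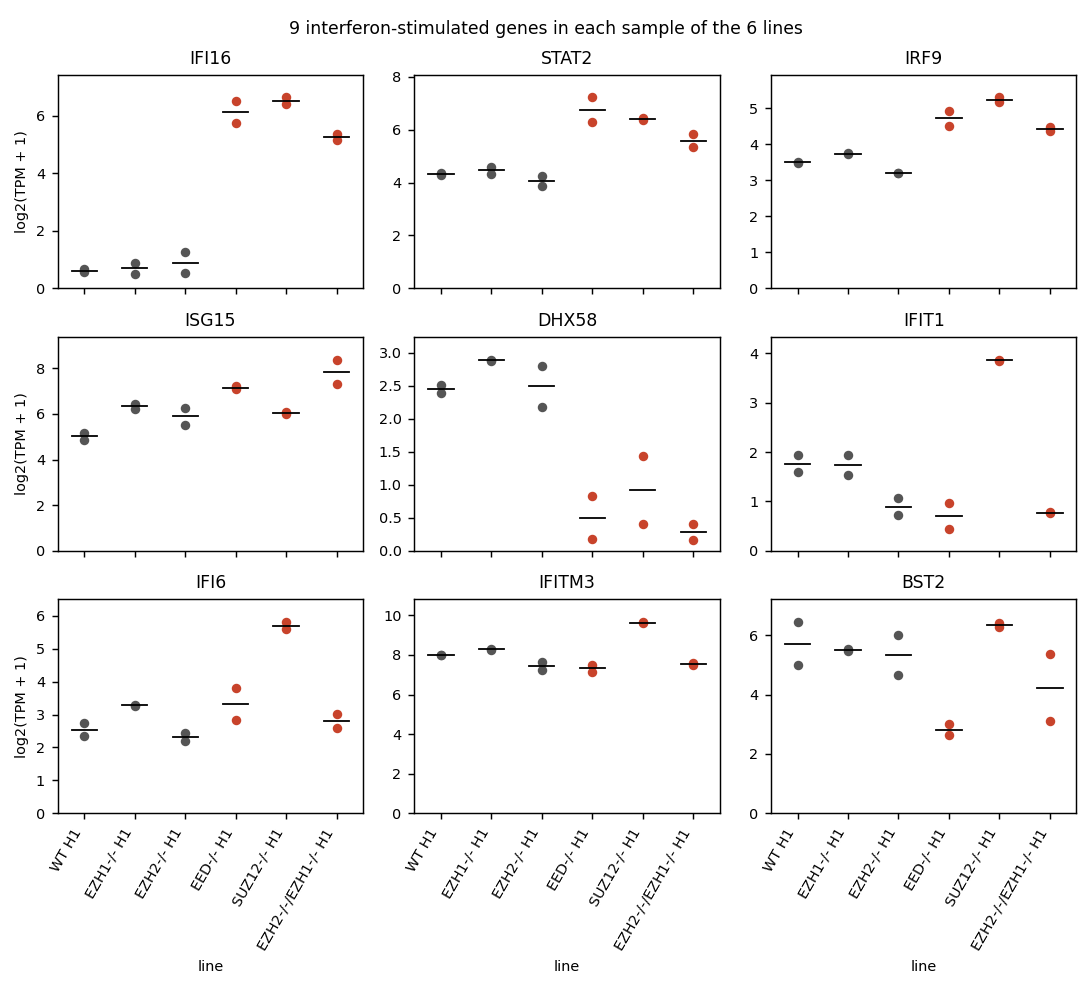
Level of 9 members as log2(TPM + 1) (y axis) in each sample (points) of the 6 lines (x axis), with the mean of a line as a bar, PRC2-retaining lines in gray and PRC2-null lines in red. IFI16, STAT2 and IRF9 part the PRC2-null from the PRC2-retaining samples upward and DHX58 downward, whereas IFIT1, IFI6 and IFITM3 stand out in SUZ12-/- H1 alone.

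Of the 3 sensors of viral RNA, only DHX58 was called in the PRC2-null average. DHX58 (LGP2, a regulator of the RIG-I family, on chromosome 17 at 42101404 to 42112714, minus strand) read 4.22 and 4.70 TPM in WT H1, 6.35 and 6.43 in EZH1-/- H1, and 3.53 and 5.97 in EZH2-/- H1. It read 0.77 and 0.13 in EED-/- H1, 1.70 and 0.33 in SUZ12-/- H1, and 0.33 and 0.12 in EZH2-/-/EZH1-/- H1. All 6 PRC2-null samples lay below the others, with an average difference of -1.88 ± 0.31 (limma, adjusted p = 0.000425). In bulk RNA, fewer cells that express a gene and less RNA per cell cannot be told apart. DDX58, the sensor RIG-I itself, lay at 4.23 to 11.1 TPM in the PRC2-null samples and 3.23 to 8.17 in the others, and its average difference from WT H1 was 0.12 ± 0.28 (limma, adjusted p = 0.737). IFIH1 read 0.39 and 0.38 TPM in WT H1 and 3.97 and 3.42 in SUZ12-/- H1, where it was called higher, and 0.26 to 1.11 in the other PRC2-null samples.

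Of the 4 IFIT genes, RNA-binding effectors that lie together on chromosome 10 between 89283694 and 89421605, IFIT1 and IFIT3 were called higher in SUZ12-/- H1. IFIT1 read 2.82 and 2.01 TPM in WT H1, 2.86 and 1.88 in EZH1-/- H1, and 1.10 and 0.65 in EZH2-/- H1. It read 0.36 and 0.95 in EED-/- H1, 13.6 and 13.4 in SUZ12-/- H1, and 0.72 and 0.69 in EZH2-/-/EZH1-/- H1. The difference of SUZ12-/- H1 from WT H1 was 2.10 ± 0.29 (limma, adjusted p = 0.00018), while the other PRC2-null lines lay at -1.06 ± 0.29 and -0.99 ± 0.29 (limma, adjusted p = 0.011 and 0.0178), so the average of the 3 lines was 0.02 ± 0.24 (limma, adjusted p = 0.960).

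IFIT3 read 0.89 and 1.06 TPM in WT H1, 1.81 and 1.49 in EED-/- H1, 9.19 and 7.91 in SUZ12-/- H1, and 1.25 and 1.44 in EZH2-/-/EZH1-/- H1. It did not overlap between PRC2-null and PRC2-retaining samples, and the call was made in SUZ12-/- H1 (2.27 ± 0.24, limma, adjusted p = 2.83e-05). IFIT2 reached 1.92 and 2.36 TPM in SUZ12-/- H1 and at most 0.34 in the other 10 samples, at a difference of 1.5 ± 0.22 from WT H1, under the fold (limma, adjusted p = 0.000295). IFIT5 was at 6.19 and 4.65 TPM in SUZ12-/- H1 against 1.93 and 2.54 in WT H1 and was not called.

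Of the enzymes that act on RNA, OAS1, which makes short oligoadenylates on meeting double-stranded RNA, read 2.71 and 3.11 TPM in SUZ12-/- H1, 1.05 and 0.51 in EED-/- H1, 0.48 and 0.17 in EZH2-/-/EZH1-/- H1, and 0 to 0.16 in the PRC2-retaining samples. It was called in SUZ12-/- H1 (1.86 ± 0.24, limma, adjusted p = 0.000126). OAS3 lay between 0.12 and 2.43 TPM in all 12 samples, and OAS2 and OASL did not exceed 0.50 TPM. The exonuclease ISG20 lay between 2.19 and 5.60 TPM and was not called in any line.

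The membrane effectors moved in opposite directions in the PRC2-null lines. IFITM3, which blocks viral entry at endosomes, read 253 and 254 TPM in WT H1, 773 and 807 in SUZ12-/- H1, 177 and 141 in EED-/- H1, and 193 and 179 in EZH2-/-/EZH1-/- H1. It was higher in SUZ12-/- H1 by 1.64 ± 0.18 (limma, adjusted p = 3.39e-05), with the call lost under median-ratio scaling, and was not called in the other lines. IFITM2 read 492 and 415 TPM in WT H1, 123 and 171 in EED-/- H1, 136 and 139 in EZH2-/-/EZH1-/- H1, and 261 and 303 in SUZ12-/- H1, and was called lower in EED-/- H1 (-1.64 ± 0.19) and in EZH2-/-/EZH1-/- H1 (-1.71 ± 0.19), both by limma with adjusted p = 5.13e-05 and 5.47e-05. It was also low in EZH2-/- H1, at 152 and 179 TPM, so PRC2-null and PRC2-retaining samples overlapped.

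IFITM1, at 122 to 255 TPM in the PRC2-null samples and 346 to 979 in the others, was lower in all 6 without reaching the fold (-0.88 ± 0.21 from WT H1, limma, adjusted p = 0.00443). IFITM1, IFITM2 and IFITM3 are close copies that lie side by side on chromosome 11, so how reads were shared among them is uncertain. BST2 (tetherin, which holds budding virus at the membrane) read 85.8 and 30.8 TPM in WT H1, 5.24 and 6.97 in EED-/- H1, 40.2 and 7.57 in EZH2-/-/EZH1-/- H1, and 77.0 and 84.4 in SUZ12-/- H1. It was called lower in EED-/- H1 (-2.90 ± 0.68, limma, adjusted p = 0.00455), a call lost without WT H1 replicate 1, without either EED-/- H1 sample, or with no filter on low values. Without WT H1 replicate 1, 0 of the 3 lower calls in EED-/- H1 and 1 of the 2 in EZH2-/-/EZH1-/- H1 were left. Left out in turn, each EED-/- H1 sample reduced the lower calls in that line to 1, and leaving out WT H1 replicate 2 reduced those in EZH2-/-/EZH1-/- H1 to 1. Over all tested genes, lower calls in EED-/- H1 went from 1164 to 942 without WT H1 replicate 1. They went to 971 and 1106 without EED-/- H1 replicates 1 and 2. In EZH2-/-/EZH1-/- H1 they went from 1081 to 799 and 843 without WT H1 replicates 1 and 2.

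The GTPases MX1 and MX2, which trap viral nucleocapsids, lay between 1.37 and 4.64 TPM and between 1.83 and 8.38 TPM, and neither was called in any line. RSAD2 (viperin), a marked responder to interferon, did not exceed 0.53 TPM in the 12 samples.

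Among the other interferon-inducible genes, IFI6, a mitochondrial protein that counters apoptosis, read 4.05 and 5.71 TPM in WT H1, 55.1 and 47.8 in SUZ12-/- H1, 13.0 and 6.17 in EED-/- H1, and 5.03 and 7.15 in EZH2-/-/EZH1-/- H1. Its difference in SUZ12-/- H1 was 3.17 ± 0.33 (limma, adjusted p = 2.6e-05), the second in size after IFI16 among the members of that line. XAF1, a factor that promotes apoptosis, read 3.91 and 3.08 TPM in SUZ12-/- H1 and at most 1.28 elsewhere (1.85 ± 0.26, limma, adjusted p = 0.000212). The chemokine CXCL10 read 2.47 and 3.09 TPM in SUZ12-/- H1, 0.12 to 0.48 in the other PRC2-null samples, and was listed at 0 in all 6 PRC2-retaining samples (1.91 ± 0.22, limma, adjusted p = 5.59e-05).

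IFI35 reached 10.8 and 7.24 TPM in SUZ12-/- H1 against 1.40 to 4.22 in the other samples, a difference from WT H1 of 1.48 ± 0.36, under the fold (limma, adjusted p = 0.00598). IFI27 lay between 0.53 and 4.71 TPM in the PRC2-null samples and between 0.45 and 1.33 in the others, and IFI44 was at 0.48 to 1.82 TPM in the former and listed at 0 in the latter, neither of them called. TRIM22, an antiviral ubiquitin ligase, read 146 and 82.7 TPM in EED-/- H1, 46.4 and 17.4 in EZH2-/-/EZH1-/- H1, 40.0 and 33.1 in SUZ12-/- H1 and 30.1 to 81.8 in the PRC2-retaining samples, and was not called.

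Deleting EZH1 or EZH2 alone called 0 of the 30 tested members by limma, where the background was 0.0995% in EZH1-/- H1 and 0.0% in EZH2-/- H1. At an unadjusted p under 0.05, 4 members (13.3%) differed in EZH1-/- H1 and 7 (23.3%) in EZH2-/- H1, beside 16.0% and 5.81% of all tested genes. In EZH1-/- H1 the nearest to a call were IRF7, at 1.53 ± 0.30 (limma, adjusted p = 0.0446), and IFITM1, which read 877 and 979 TPM against 388 and 346 in WT H1 (1.34 ± 0.26, limma, adjusted p = 0.0428). In EZH2-/- H1 it was IFITM2, lower by -1.45 ± 0.19 (limma, adjusted p = 0.0254).

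The difference between SUZ12-/- H1 and the other PRC2-null lines was tested directly. Against EED-/- H1, 5 members (16.7% of the 30 tested) were called higher in SUZ12-/- H1, at a background of 3.54%, and 0 lower, at 2.58% by limma (2 were lower at an unadjusted p under 0.05, as were 19.2% of all genes). They were IFIT1 (3.16 ± 0.29, limma, adjusted p = 4.97e-05), IFI6, IFIT3, IFITM3 and BST2. Against EZH2-/-/EZH1-/- H1, 8 members (26.7% of the 30 tested) were called higher, at a background of 3.32%, namely IFIT1 (3.09 ± 0.29, limma, adjusted p = 6.22e-05), IFI6, IFIT3, IFITM3, IFIH1, XAF1, CXCL10 and IFI35 (6 without XAF1 and CXCL10, which passed the filter only through PRC2-null samples), and ISG15 was called lower, at a background of 1.14%. Between EZH2-/-/EZH1-/- H1 and EED-/- H1, 0 members were called by limma, at a background of 0.089%, with 7 (23.3%) at an unadjusted p under 0.05, beside 20.1% of all genes. The first 2 contrasts share the samples of SUZ12-/- H1. The count of 6 without XAF1 and CXCL10 has no background, since the share of all genes under that restriction was not computed. The call of BST2 was lost without either SUZ12-/- H1 or either EED-/- H1 sample, that of IFI35 without any 1 sample of a knockout line, and that of ISG15 without EZH2-/-/EZH1-/- H1 replicate 2, either SUZ12-/- H1 or either EZH1-/- H1 sample, or under median-ratio scaling. Without SUZ12-/- H1 replicate 1 or its replicate 2, 2 and 3 members were called higher against EED-/- H1 and 3 and 5 against EZH2-/-/EZH1-/- H1. IFIT2 and CXCL10 were then no longer tested. Of all genes, 239 of 18659 and 248 of 18674 were then called higher against EED-/- H1, beside 676 of 19100 with all samples. Against EZH2-/-/EZH1-/- H1 they were 173 and 184, beside 635 with all samples. IFIT1 and IFITM3 were called in both contrasts without SUZ12-/- H1 replicate 1. IFI6 lost its call against EED-/- H1 without either SUZ12-/- H1 sample. Under median-ratio scaling, the share of higher among all genes called against EED-/- H1 went from 57.8% to 70.0% (802 higher and 343 lower), and IFI35 joined the 5 members.

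Markers of differentiated cells were unequal among the PRC2-null lines. Summed over 5 endoderm markers, SUZ12-/- H1 stood at 13333 and 13821 TPM, almost all of it AFP, against 338 to 973 TPM in the other 4 PRC2-null samples and 4.72 to 14.8 in the PRC2-retaining ones. SOX17, GATA4, GATA6 and FOXA2 instead had their lowest mean among the PRC2-null lines in SUZ12-/- H1. SOX17 averaged 15.7 TPM there, against 41.0 in EED-/- H1 and 48.8 in EZH2-/-/EZH1-/- H1. Summed over 5 mesenchyme markers, SUZ12-/- H1 stood at 20557 and 20217 TPM, against 2492 to 7797 in the other 4 PRC2-null samples and 30.4 to 52.9 in the PRC2-retaining ones. COL3A1, at a mean of 11167 TPM, LUM, DCN and PDGFRB had their highest mean among the PRC2-null lines in SUZ12-/- H1. COL1A1 instead averaged 2397 TPM in SUZ12-/- H1, between 3357 in EED-/- H1 and 1465 in EZH2-/-/EZH1-/- H1. The 5 endothelial markers summed to 157 and 146 TPM in SUZ12-/- H1, 506 and 329 in EED-/- H1, 177 and 52.6 in EZH2-/-/EZH1-/- H1 and 46.1 to 145 in the PRC2-retaining samples. Among them, PECAM1 lay at 13.2 to 153 TPM in the PRC2-null samples and at most 0.37 in the PRC2-retaining ones. CDH5 (11.9 to 146 against at most 0.95) and TIE1 (7.14 to 54.6 against at most 2.76) did not overlap either, while KDR and TEK did. Of the 6 blood and macrophage markers, 2 (LYZ and CSF1R) reached 1 TPM in SUZ12-/- H1. The list summed to 20.6 to 21.1 TPM there, against 12.2 to 17.1 in the other PRC2-null samples and 1.72 to 4.18 in the PRC2-retaining ones. LYZ averaged 18.9 TPM in SUZ12-/- H1, against 2.89 in EED-/- H1 and 1.8 in EZH2-/-/EZH1-/- H1. CSF1R instead averaged 1.335 TPM in SUZ12-/- H1, against 9.835 and 8.5. CD14, SPI1, ITGAM and PTPRC also had their lowest mean among the PRC2-null lines in SUZ12-/- H1. PTPRC, which defines blood cells, was at 0.09 and 0.06 TPM there. The part of these cell types in the members' levels was not tested.

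After withdrawal of DOX from H1-EED-/-/EED-OE cells, IFI16 was the only member more than 3-fold above the DOX sample at each of the 6 days. It read 0.49 TPM with DOX, and 4.38, 4.03, 8.25, 82.7, 95.0 and 81.2 TPM at days 8, 12, 16, 20, 24 and 28. The level therefore stood above the DOX sample from day 8 and stepped up between days 16 and 20. Over the same days POU5F1 read 2916 TPM with DOX, 2422 to 3468 at days 8 to 16, 1580 at day 20, and 46.2 and 33.6 at days 24 and 28, while the endoderm markers summed to 6.74 TPM at day 8, 85.4 at day 16 and 375 at day 20, and the mesenchyme markers to 28.0 to 106 up to day 20 and to 4931 and 3921 at days 24 and 28. Each day is 1 sample, so single days were not tested and a library cannot be told apart from its day.

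**Figure D4:**
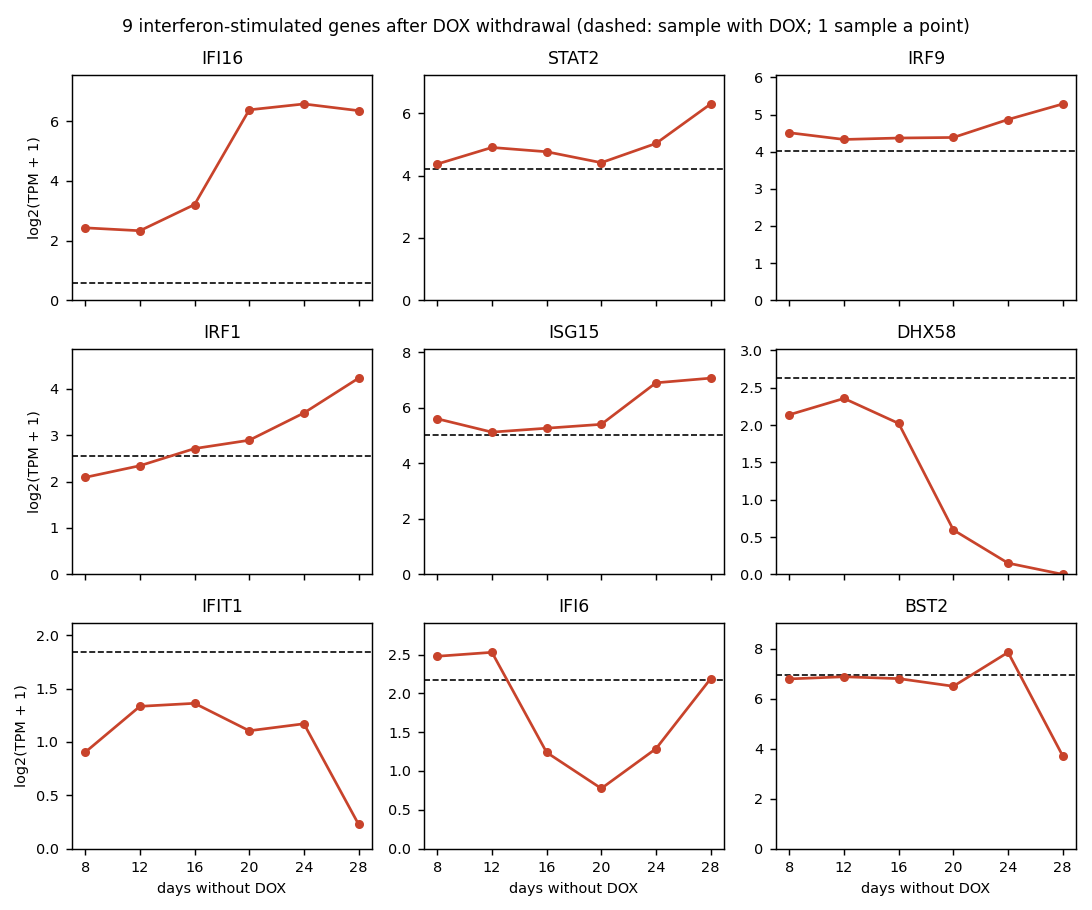
Level of 9 members as log2(TPM + 1) (y axis) in H1-EED-/-/EED-OE cells against days without DOX (x axis, 1 sample a point), with the sample kept in DOX as a dashed line. IFI16 lies above the line from day 8 and steps up at day 20, DHX58 falls away from day 20, and IFIT1 stays below the line on all 6 days.

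Counted against the DOX sample at a fold of at least 3, with 24 members tested, day 8 had 1 member higher (IFI16) and 0 lower, at a background of 2.93% and 0.603% of 17245 genes. Day 12 had 1 higher (IFI16) and 0 lower, at 3.08% and 0.4%. Day 16 had 2 higher (IFI16 and IFITM1) and 0 lower, at 4.13% and 0.939%. Day 20 had 2 higher (IFI16 and USP18) and 1 lower (DHX58), at 9.62% and 2.91%. Day 24 had 3 higher (IFI16, ISG15 and IFIT3) and 2 lower (DHX58 and TRIM22), at 13.9% and 5.09%. Day 28 had 4 higher (IFI16, STAT2, ISG15 and IRF1) and 3 lower (DHX58, BST2 and IFIT1), at 18.8% and 6.11%. Another 10 members, among them IFIH1, IFIT2, OAS1, XAF1 and CXCL10, were below the filter of 1 TPM in at least 2 of the 7 samples. The members higher at each day were thus 1 to 4 of the 24 tested, and the medians of the 24 tested members lay between -0.01 and 0.32, where those of all genes lay between 0.15 and 0.41.

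In a straight-line fit of log2(TPM + 1) on the day over the 6 samples without DOX, 2 members were called higher with time at an adjusted p of at most 0.05, at a background of 12.3%, and 1 lower, at 7.34%. IFI16 rose by 0.25 ± 0.05 a day (limma, adjusted p = 0.0146). IRF1 rose by 0.10 ± 0.02 a day (limma, adjusted p = 0.0175), from 3.26 TPM at day 8 through 4.07, 5.55, 6.42 and 10.2 to 17.8 at day 28, with 4.86 in DOX. DHX58 fell, at a slope of -0.13 ± 0.03 a day (limma, adjusted p = 0.0213), from 3.40, 4.12 and 3.06 TPM at days 8 to 16 to 0.51 and 0.11 at days 20 and 24 and a listed 0 at day 28, with 5.18 in DOX. All 3 calls were lost without day 12 and all 3 without day 28, when IFITM3 was called higher and TRIM22 lower instead. Over all tested genes, calls fell from 2114 higher and 1265 lower to 487 and 223 without day 12, and to 224 and 197 without day 28. IRF1 was also lost when the DOX sample entered the fit as day 0. Without day 24 the call of DHX58 was lost, without day 20 those of STAT2 and ISG15 were gained, and without day 8 that of ISG15.

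STAT2 and ISG15 reached their highest levels at day 28. STAT2 read 17.7 TPM with DOX, 19.7, 28.9, 26.2 and 20.3 at days 8 to 20, 31.7 at day 24 and 77.7 at day 28, and ISG15 read 31.2 with DOX, at most 47.8 at days 8 to 20, and 119 and 134 at days 24 and 28. Neither slope was called (limma, adjusted p = 0.0999 and 0.0556). BST2 read 122.5 TPM with DOX, 89.3 to 117 at days 8 to 20, 230.5 at day 24 and 12.1 at day 28, so neighbouring libraries lay at the highest and the lowest value of the time course. OAS1, IFIT2 and USP18 peaked at day 20, at 8.43, 2.31 and 14.3 TPM, and were at most 0.53, 0.26 and 5.53 TPM in the other 6 samples. IFI6 and IFIT1, high in SUZ12-/- H1, read 0.71 to 4.77 and 0.17 to 1.57 TPM at the 6 days, against 3.51 and 2.58 with DOX.

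The genes around the members gave the setting of the pathway. Of 14 interferon genes, IFNB1, the first interferon made on virus sensing, was listed at 0 in all 19 samples, and only 2 could be tested. IFNE, an interferon of epithelia, was called higher in the PRC2-null average (1.65 ± 0.45, limma, adjusted p = 0.00975), with 11.0 and 1.99 TPM in EED-/- H1, 0.64 and 2.72 in EZH2-/-/EZH1-/- H1, 1.35 and 0.88 in SUZ12-/- H1, and at most 0.41 in the PRC2-retaining samples. Of 10 receptor chains and kinases, 3 were called higher and 0 lower in the PRC2-null average, with 0 members of that list lower in any single PRC2-null line. They were IL10RB (2.56 ± 0.27), a chain of the interferon-lambda receptor, IFNAR1 (1.72 ± 0.24), a chain of the receptor for interferon-alpha and -beta, and JAK1 (1.75 ± 0.29), the kinase shared by all interferon receptors, with adjusted p of 1.7e-05, 0.000141 and 0.000487 by limma. IFNLR1, the other chain of the interferon-lambda receptor, was not called but lay lower in every PRC2-null sample (2.74 to 3.75 TPM) than in any PRC2-retaining one (5.66 to 8.47).

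IFNAR1 read 5.25 and 6.95 TPM in WT H1, 45.4 and 27 in EED-/- H1, 23.4 and 22.5 in SUZ12-/- H1, and 15.8 and 11.53 in EZH2-/-/EZH1-/- H1, without overlap between PRC2-null and PRC2-retaining samples. IFNAR2, the other chain of that receptor, was at 0.56 ± 0.26 (limma, adjusted p = 0.0886) and was not called in any PRC2-null line. Of 14 genes of nucleic acid sensing, 13 were tested and 3 called higher, among them TMEM173 (STING, 2.18 ± 0.28) and TICAM1 (the adaptor of TLR3, 2.10 ± 0.26), each with an adjusted p of at most 8.42e-05 by limma. Of 6 negative regulators, 0 were called in the average.

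Of 41 other interferon-stimulated genes, 36 were tested, and 6 were called higher and 2 lower. The 3 largest rises were EPSTI1 (4.91 ± 0.32), TDRD7 (3.20 ± 0.20) and GBP2 (3.09 ± 0.29), and the falls were UBE2L6 (-2.32 ± 0.18), which conjugates ISG15, and TRIM14 (-1.92 ± 0.27). EPSTI1 read 0.93 and 0.53 TPM in WT H1, 56.6 and 109 in EED-/- H1, 17.8 and 19.3 in SUZ12-/- H1, and 117 and 65.6 in EZH2-/-/EZH1-/- H1, so SUZ12-/- H1 was the lowest of the 3 lines for it, by -2.02 ± 0.39 and -2.18 ± 0.39 (limma, adjusted p = 0.00434 and 0.00376). Over these lists together, 67 of 85 genes were tested, and in the PRC2-null average 13 (19.4%) were called higher and 2 (2.99%) lower, where the background was the 13.6% and 5.36% given above. In EED-/- H1 the counts were 15 (22.4%) and 3 (4.48%), at a background of 16.2% and 6.09%. In SUZ12-/- H1 they were 15 (22.4%) and 0, at 14.5% and 5.21%, and in the double knockout 9 (13.4%) and 2 (2.99%), at 11.6% and 5.66%.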

How the data were processed

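RNA-seq was analysed in 19 samples of H1 hESCs. Per the methods and the labels, the authors made TruSeq RNA libraries, aligned them by Bowtie2 against GRCh38 transcripts and quantified by RSEM. The deposited values are TPM for 33382 genes in each sample, and read depth cannot be recovered from TPM, so precision rests on replicates alone. Genes were joined by Ensembl identifier, since 33 symbols differed between files. The edgeR test that the authors describe needs counts and was not run. Its thresholds were kept in limma 3.58.1 (R 4.3.3), on log2(TPM + 1) for genes that reached 1 TPM in 2 or more of the 12 samples, with 1 mean per line and eBayes with trend and robust options. Calls needed adjusted p ≤ 0.01 and a 3-fold change. This scale understates changes of low genes. The day trend used the 6 samples without DOX and an adjusted p of at most 0.05. The fits were tested on simulated data. All 34 members, the genes the rule for neighbouring lists picked (IFNAR1, IFNAR2, IFNB1, and up to 3 called genes a direction and list, some of which are not reported here), the PRC2 genes and POU5F1 were named. Members and lists were chosen with earlier results of these data known. Alternatives changed the pseudocount, filter, thresholds, scaling, reference and samples, and replicate numbers follow accession order. Gene positions are from GENCODE release 44 on GRCh38. Python 3.11.15 with pandas 2.3.3, numpy 2.4.6 and matplotlib 3.10.9 was used.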

Additional observations from a re-analysis of the deposited data

Results flagged for a closer look

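In all, 14 results were singled out because the PRC2-null lines differed from one another in a direct limma contrast. On the log2(TPM + 1) scale, SUZ12-/- H1 lay above EED-/- H1 by 3.53 for BST2, 2.39 for IFI6, 3.16 for IFIT1, 1.85 for IFIT3 and 2.31 for IFITM3. It lay above EZH2-/-/EZH1-/- H1 by 1.67 for CXCL10, 1.76 for IFI35, 2.90 for IFI6, 1.67 for IFIH1, 3.09 for IFIT1, 2.02 for IFIT3, 2.08 for IFITM3 and 1.98 for XAF1. ISG15 was lower in SUZ12-/- H1 than in EZH2-/-/EZH1-/- H1, at -1.79. The cause of these differences was not tested. Differences of BST2, IFI35 and ISG15 were the least stable of them, with calls lost under 5, 13 and 7 of the alternatives, respectively. Calls of IFI6 against EED-/- H1 and of IFIH1 were lost without either SUZ12-/- H1 sample. Those of IFIT3 in both contrasts and of XAF1 were lost without SUZ12-/- H1 replicate 1. Without EZH2-/-/EZH1-/- H1 replicate 1, those of IFIH1 and CXCL10 were lost, and CXCL10 also lost its call with a pseudocount of 0.1.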

How the results depend on the processing

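No paired analysis was possible because the labels number no replicates of the knockout lines, whose samples carry clone or passage names, and the numbers used follow accession order. Among members called in the main setting, no difference reversed its direction under an alternative, and 759 values kept their call where 60 lost it. The loosest thresholds, an adjusted p of at most 0.05 with no fold, reuse the main fit and could lose no call. Of the counts of members under the alternatives, 57 moved and 325 were the same or close. With an adjusted p of at most 0.05 and no fold threshold, members called higher were 14 in the PRC2-null average against WT H1 and 15 against the lines retaining H3K27me3, 19 in SUZ12-/- H1, 7 in EED-/- H1 and 7 in the double knockout against WT H1, 12 in SUZ12-/- against EED-/- H1 and 15 against EZH2-/-/EZH1-/- H1. In the same order, 36.4%, 43.8%, 29.5%, 34.1%, 26.9%, 9.2% and 8.4% of all tested genes were then called higher. Members called lower were then 3, 5, 2, 7 and 5 in the same first 5 contrasts and 2 in SUZ12-/- against EED-/- H1, with 20.1%, 24.8%, 17.4%, 17.0%, 17.4% and 10.4% of all genes, and 2 members were called in EZH1-/- H1 and 1 in EZH2-/- H1, with 1.06% and 0.0628% of all genes. A pseudocount of 0.1 gave 6 and 8 members higher in the PRC2-null average against WT H1 and the retaining lines, where 19.3% and 21.4% of all genes were called higher, and 5 higher at day 24 and 3 lower at day 20. Without SUZ12-/- H1 in the average, 3 members were lower in both of these contrasts, beside 5.82% and 5.41% of all genes. Median-ratio scaling gave 2 lower against the retaining lines, 1 lower in SUZ12-/- H1 against WT H1 and 0 in SUZ12-/- against EZH2-/-/EZH1-/- H1, beside 6.66%, 6.79% and 1.13% of all genes. In the last of these contrasts, leaving out both samples with low long transcripts, an alternative chosen after seeing the data, also gave 0, beside 1.44%. At an adjusted p of at most 0.01, 0 members had a trend over days in either direction, beside 2.02% of all genes. A fold of at least 2 gave 2 higher and 1 lower at day 8, 1 lower at day 12, 6 higher and 4 lower at day 20 and 5 higher at day 24, and the mean of WT H1 as reference gave 3 lower at day 20. For these day counts, and for those with a pseudocount of 0.1, the share of all genes was not computed, so they have no background. Leaving out 1 sample at a time, higher calls ranged from 2 to 5 in SUZ12-/- against EED-/- H1, from 3 to 8 against EZH2-/-/EZH1-/- H1, and from 0 to 4 in the trend. Over all tested genes, higher calls then ranged from 239 to 766, from 173 to 1276 and from 224 to 2268 in the same order. Lower calls ranged from 0 to 3 in EED-/- H1, 1 to 3 in EZH2-/-/EZH1-/- H1, 0 to 1 in SUZ12-/- H1 against WT H1 and against EZH2-/-/EZH1-/- H1, 0 to 1 in the trend, and 1 to 2 in the PRC2-null average against WT H1 and against the retaining lines. Over all tested genes, lower calls ranged in that order from 942 to 1182, 799 to 1621, 814 to 1020 and 50 to 387. In the trend they ranged from 197 to 1313, and in the PRC2-null averages from 882 to 1129 and from 915 to 1044. Calls between EZH2-/-/EZH1-/- and EED-/- H1 ranged from 0 to 1. Without EZH2-/-/EZH1-/- H1 replicate 1, 101 of all tested genes were called higher in that contrast and 636 lower. Without either SUZ12-/- H1 sample, 1 was called higher and 0 lower. The cause of these shifts was not tested beyond the looser or stricter thresholds themselves. TPM gives no depth, so the precision of single low values cannot be stated.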
